A study of Gallus gallus with 4 samples.

Results

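Integrin and laminin genes were taken as all rows of the RPKM table whose gene name begins with ITGA, ITGB, LAMA, LAMB or LAMC followed by a digit, which gave 31 of 15386 genes. Of these, 27 encode subunits: 8 integrin alpha, 7 integrin beta, 5 laminin alpha chains and further laminin beta and gamma chains. The other 4 (ITGB1BP1, ITGB1BP2, ITGB1BP3 and ITGB3BP) are matched by name but encode proteins named for binding an integrin beta subunit, and were kept out of the class sums below. The rule asks for a digit, so ITGAV is not a member. ITGA3, ITGA5, ITGA7, ITGA10 and ITGB7 have no row under these names, so the class sums and shares leave them out. Some may be among the 2745 rows with an Ensembl ID.

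RNA came from the complex of the dermal papilla in growing feathers of the back of untreated White Leghorn chickens. It was dissected into an anterior and a posterior side, and each side gave 2 of the 4 libraries. All groups share the breed, tissue, stage and lack of treatment. Age, sex and whether the libraries came from separate birds are not given in the labels used here, so the p-values measure only the spread between these libraries, which may be technical. The values of a side are given below for library 1 first and library 2 second. RPKM scales read numbers to gene length and library depth, so levels can be compared between genes, but it keeps no read totals.

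Integrins are cell surface receptors made of 1 alpha and 1 beta subunit that tie the cytoskeleton to the extracellular matrix. Laminins are trimers of 1 alpha, 1 beta and 1 gamma chain that form the sheet on which basement membranes are built. In the feather follicle, as in the hair follicle, such a membrane separates the papilla from the epithelium it signals to, and others surround its vessels, nerves and muscle. The alpha chain largely sets which integrins and dystroglycan a laminin binds, and the beta subunit largely sets which proteins an integrin recruits inside the cell.

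Among the marker genes of cell types, those of smooth muscle set posterior library 1 apart from the other libraries. All 11 tested smooth muscle markers had their highest value there, and their summed level was 4497 RPKM against 323 to 420 RPKM in the others. None of these 11 was at 0 in any library. The same library had the lowest sum of dermal papilla markers, 122 RPKM against 208 to 237 RPKM, and its depth, estimated from ratios of low values, was 77.1% of that of anterior library 1. Keratinocyte markers were highest in anterior library 1, at 3773 RPKM against 1576 to 2094 RPKM. Endothelial marker sums differed less, from 176 to 200 RPKM, and leukocyte marker sums ran from 351 to 430 RPKM, including CD74 at 254 to 314 RPKM. Single markers did not all follow these sums. Posterior library 1 was the highest for 4 and the lowest for 7 of 12 endothelial markers. For the 8 leukocyte markers it was the highest for 5 and the lowest for 1. For the 8 tested fibroblast markers it was the highest for 4 and the lowest for 3. Of the 11 tested dermal papilla markers it was the lowest for 8 and the highest for 1, FGF10. Over all tested genes it was the highest for 26.5% and the lowest for 54.5%. In such bulk samples fewer cells of a type and less RNA per cell cannot be told apart. The part of these markers in the results on integrins and laminins was not tested. Many of the differences between the sides that posterior library 1 moves are given below also without it.

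Of the 31 members, 27 reached at least 1 RPKM in at least 2 libraries and were tested, and each of them exceeded that level in all 4. The lowest value among them was 1.59 RPKM, for ITGA11 in posterior library 1. The 27 tested members are not the same genes as the 27 subunits. Among the tested are ITGB1BP1, ITGB1BP3 and ITGB3BP, which are not subunits but enter the counts and medians over tested members below. The other 4 of the 31 members were not tested and stayed below 1 RPKM in every library. ITGA2B, the alpha subunit of the platelet and thrombocyte fibrinogen receptor, measured 0.253 and 0.295 RPKM on the anterior side and 0.0547 and 0.0847 RPKM on the posterior side. LAMA1, an alpha chain of early embryonic basement membranes, ranged from 0.103 to 0.168 RPKM, and LAMB4 from 0.141 to 0.639 RPKM. ITGB1BP2, a muscle protein known in mammals as melusin, ranged from 0.0240 to 0.0480 RPKM.

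ITGB1 was the most abundant subunit, at 164 and 130 RPKM on the anterior side and 242 and 140 RPKM on the posterior side. It is the beta subunit shared by the largest number of integrins. Posterior library 1 was the highest and the others lay between 130 and 164 RPKM. ITGB1 made up 59.6%, 56.9%, 79.8% and 61.6% of the summed beta subunit RPKM, in the same order of libraries. ITGB5 followed at 51.6 and 58.3 RPKM on the anterior side against 26.5 and 46.7 RPKM on the posterior side, or 8.73% to 25.4% of the class. The remaining 5 beta subunits had means between 6.78 (ITGB2) and 11.1 RPKM (ITGB8).

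Among the alpha subunits matched by the rule no gene held a majority. ITGA8, which pairs with ITGB1 and binds nephronectin, measured 27.5 and 25.4 RPKM on the anterior side and 29.5 and 26.6 RPKM on the posterior side, and its share of the class ran from 25.2% to 32.8%. ITGA6 had a mean of 24.7 RPKM but was spread from 15.4 to 35.01 RPKM, so its level does not differ from that of ITGA8 beyond the spread between libraries. ITGA4 came next with a mean of 14.7 RPKM, followed by ITGA2 (8.75), ITGA1 (7.997), ITGA11 (5.33) and ITGA9 (3.82). ITGAV, outside the rule, was at 28.7, 21.4, 20.8 and 27.4 RPKM, overlapping the range of ITGA8. With ITGAV added to the class, the mean share of ITGA8 over the 4 libraries went from 29.8% to 23.5%.

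In the laminin family, 1 beta chain was dominant. LAMB1 measured 94.9 and 95.7 RPKM on the anterior side and 42.0 and 86.3 RPKM on the posterior side, and made up 70.4% to 87.1% of the beta chains. LAMC1, the common gamma chain, measured 36.8 and 30.4 RPKM against 16.4 and 30.6 RPKM, with posterior library 1 lowest. No alpha chain stood out in the same way. LAMA4 had the highest mean, 25.7 RPKM, then LAMA2 (18.1), LAMA5 (13.6) and LAMA3 (12.8), and the ranges of these 4 chains over the libraries overlapped.

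**Figure D1:**
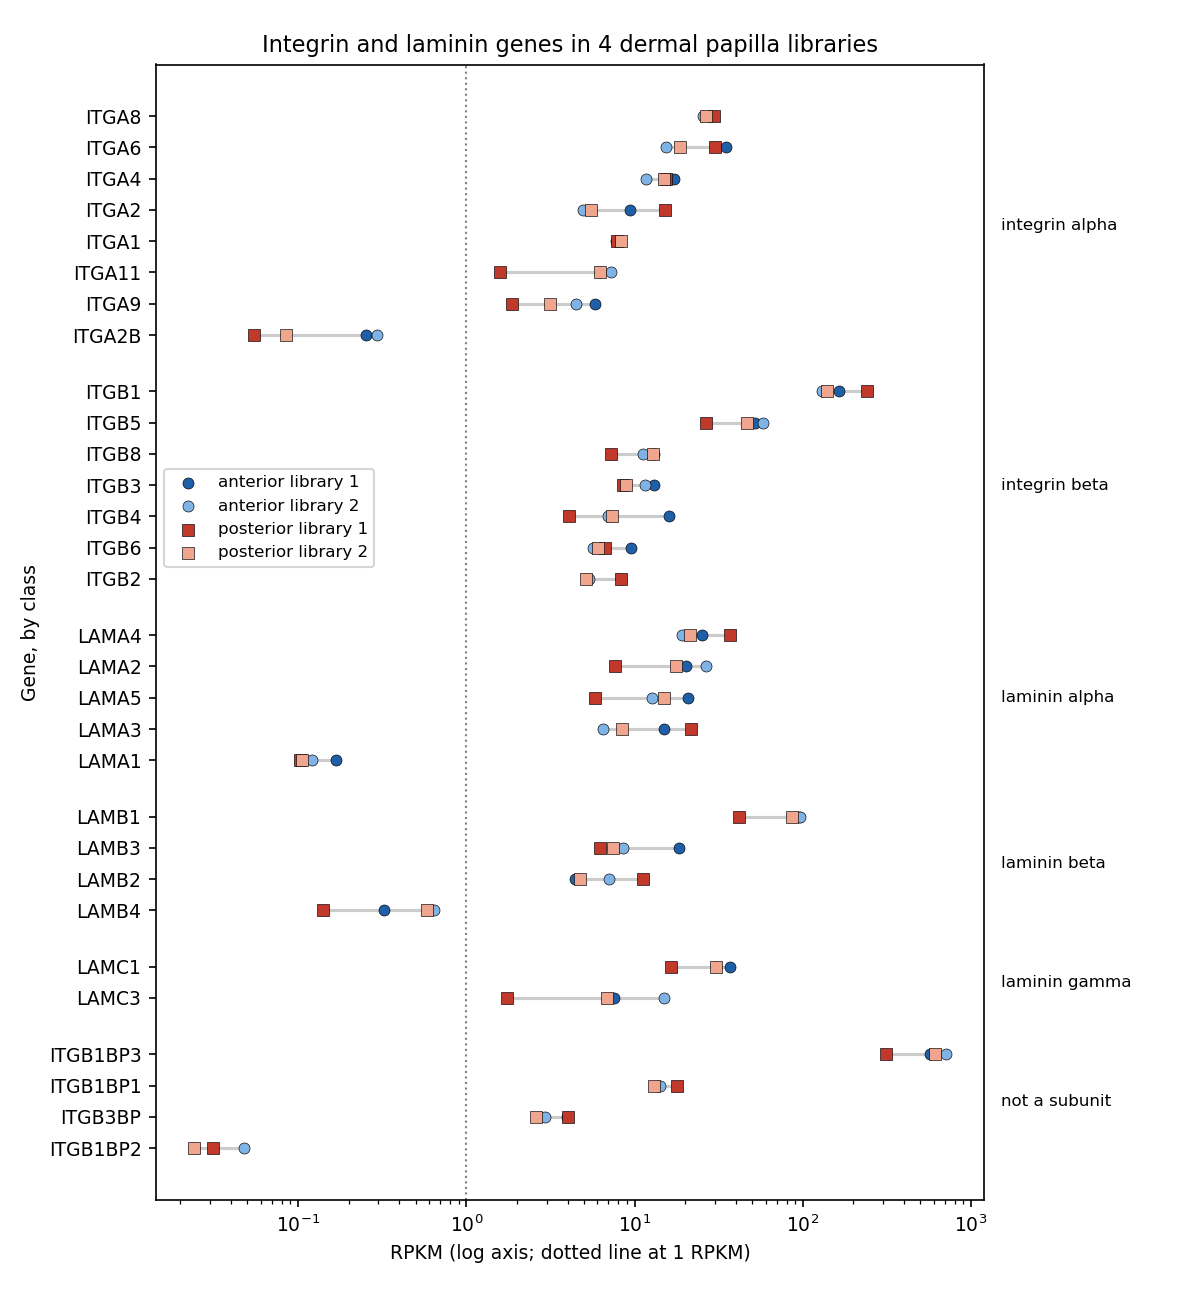
RPKM of the members reported (log axis) in each of the 4 libraries, grouped by class and ordered by mean, with circles for anterior and squares for posterior libraries. ITGB1BP3, ITGB1, LAMB1 and ITGB5 have the highest means, and ITGA2B, LAMA1, LAMB4 and ITGB1BP2 lie below 1 RPKM in all libraries.

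The make-up of the classes was compared between the sides through the share of the leading chain, and is given for the integrin classes and the laminin alpha and beta chains. The leading chain is the one with the highest mean over the libraries, and it did not lead in each library. ITGA6 had a larger share than ITGA8 in library 1 of both sides, and LAMA2 a larger one than LAMA4 in anterior library 2. Each side had 2 libraries, and the smallest two-sided p of an exact permutation test is then 0.333. That value was reached for ITGB1 (58.2% ± 1.89 in anterior and 70.7% ± 12.8 in posterior tissue, SD, n = 2 each) and LAMA4 (30.2% ± 1.21 and 42.6% ± 12.3), in exact permutation tests with an adjusted p of 0.556 over the 5 classes. For ITGB1 and LAMA4 the posterior mean was set largely by posterior library 1, in which LAMA4 held 51.3% of the alpha chain signal against 29.3% to 33.95% in the others. The leading shares of ITGA8 and LAMB1 overlapped between the sides (exact permutation p = 1 for both).

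**Figure D2:**
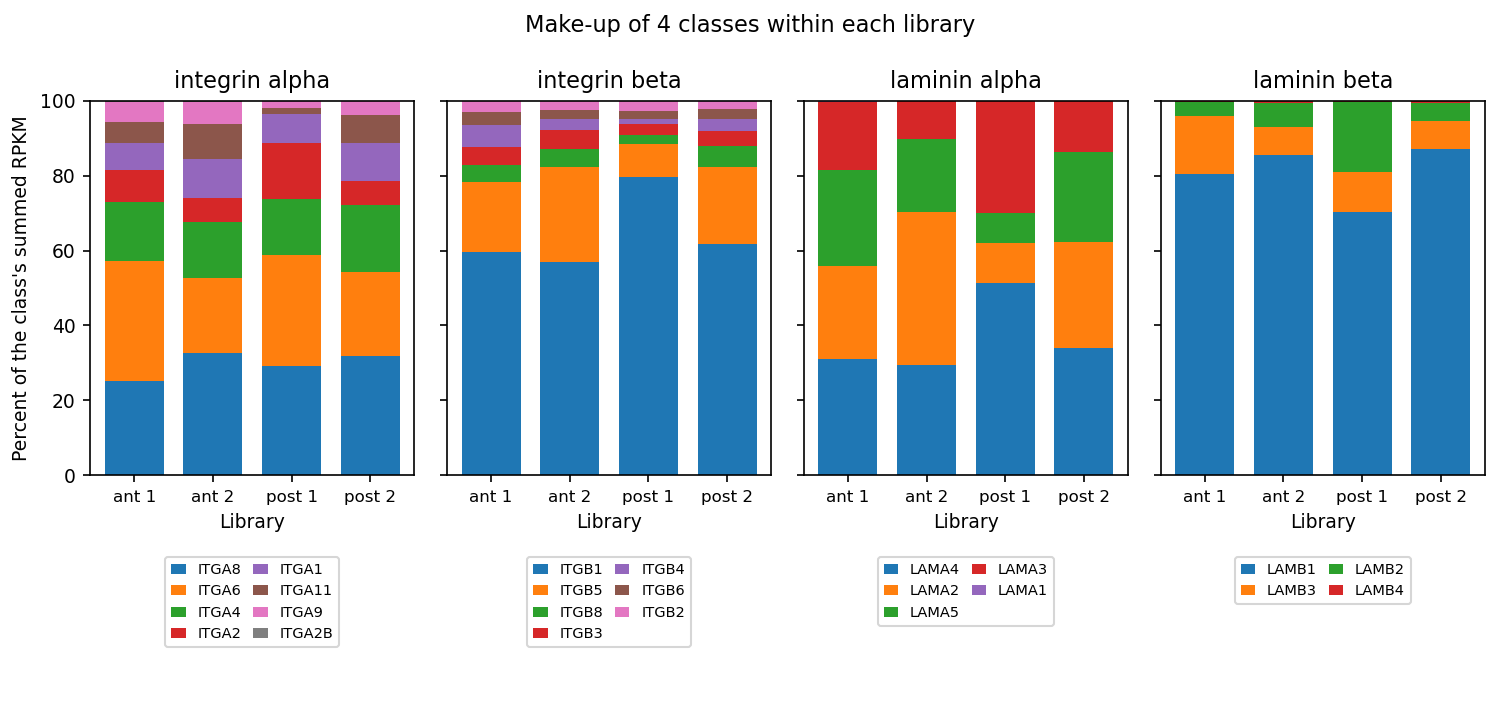
Share of each gene in the summed RPKM of its class (percent) in the 2 anterior (ant) and the 2 posterior (post) libraries, drawn as stacked bars. ITGB1 and LAMB1 hold most of their class in every library, while the alpha classes are mixed and LAMA2 runs from 41.0% in anterior library 2 to 10.6% in posterior library 1.

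The study compared gene expression on the 2 sides of the papilla. No integrin or laminin gene passed the test, in which 0 of 10939 genes (0%) had an adjusted p under 0.05 (limma on log2(RPKM + 1), Benjamini-Hochberg). The smallest adjusted p among the members was 0.964. At an unadjusted limma p under 0.05 there was 1 member, ITGA9, where the share over all tested genes was 0.942%. Both anterior libraries lay above both posterior libraries for 8 of the 27 tested members (29.6%), against 18.9% of all tested genes. The reverse held for 0 members, against 7.25% of all genes. The 8 were ITGA9, ITGA11, ITGB3, ITGB5, LAMA2, LAMB1, LAMB3 and LAMC3. After median ratio scaling between libraries the anterior members numbered 7, without ITGA11, against 13.4% of all genes. Both posterior libraries were then on top for 1 of the 27, ITGA1, against 12.7% of all genes.

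The median log2 difference, anterior minus posterior, was 0.29 over the 27 tested members and 0.11 over all tested genes. It was 0.16 and -0.0057 after median ratio scaling, so the members lay 0.18 above all genes as deposited and 0.17 above after scaling. Without posterior library 1 the medians were 0.21 and 0.023. With anterior library 1 left out instead, the members' median was 0.012, below the 0.10 of all genes. The members' median level had an SD of 0.18 (log2) between libraries of the same side.

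**Figure D3:**
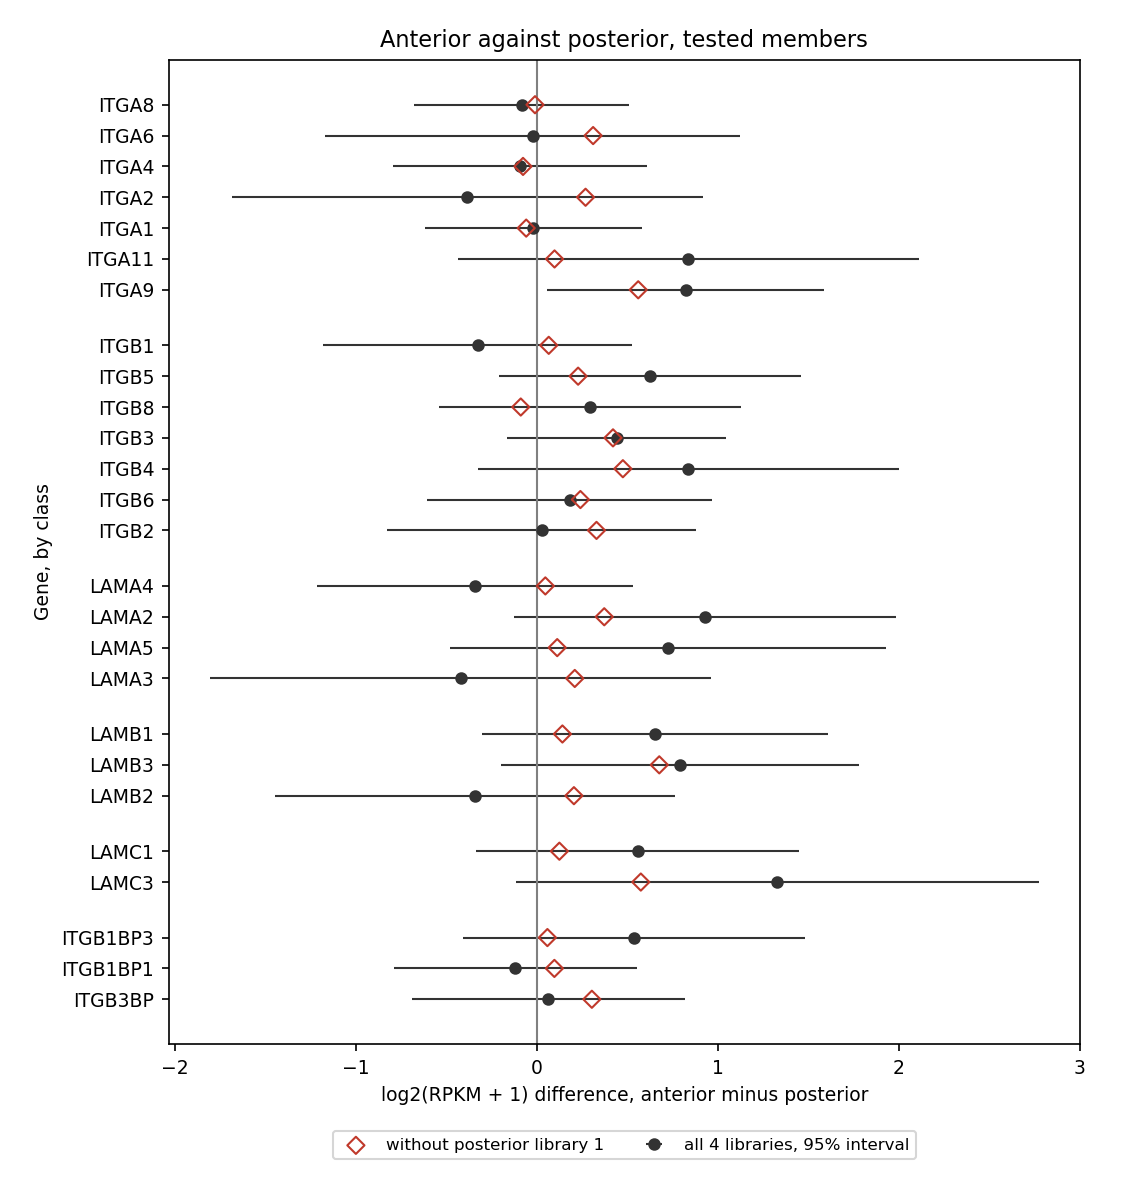
Difference between anterior and posterior means of log2(RPKM + 1) for the tested members reported, with the 95% limma interval over all 4 libraries (filled circles) and the same difference without posterior library 1 (open diamonds). Only the interval of ITGA9 leaves out 0 before adjustment for multiple tests, and without posterior library 1 the differences of most members move towards 0.

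Among laminin alpha chains, LAMA2 came nearest to a difference between the sides. It encodes the alpha chain of muscle and nerve basement membranes, which binds dystroglycan. LAMA2 measured 20.3 and 26.6 RPKM on the anterior side and 7.66 and 17.7 RPKM on the posterior side, so the groups did not overlap. The log2 difference was 0.93 with a standard error of 0.42 (limma adjusted p = 0.964), and 0.37 without posterior library 1. LAMA5, the alpha chain of many epithelial basement membranes and one needed for hair growth in mice, measured 20.9 and 12.7 RPKM against 5.84 and 14.99 RPKM. Its groups overlapped, and its log2 difference was 0.73 (SE 0.48) with all libraries and 0.11 without posterior library 1.

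LAMA4 and LAMA3 went the other way in posterior library 1. LAMA4, the alpha chain of endothelial and other vascular basement membranes, measured 25.3 and 19.0 RPKM on the anterior side and 37.1 and 21.2 RPKM on the posterior side. LAMA3, the alpha chain of the epidermal anchoring laminin, measured 14.9 and 6.46 RPKM against 21.6 and 8.42 RPKM. For both, the order of the libraries did not follow the sides, since posterior library 2 lay between the anterior libraries. The log2 differences were -0.34 (SE 0.35) for LAMA4 and -0.42 (SE 0.55) for LAMA3, and without posterior library 1 they were 0.048 and 0.21, in the opposite direction.

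LAMC3 had the largest difference of all members. It encodes a gamma chain with a narrower distribution than LAMC1, described in mammals in skin, nerve and brain. LAMC3 measured 7.56 and 14.9 RPKM on the anterior side and 1.75 and 6.82 RPKM on the posterior side, with both anterior libraries above both posterior ones. The log2 difference was 1.33 (SE 0.58, limma adjusted p = 0.964), which made it the 1 member of 27 that was at least 2-fold apart without overlap, where 0.64% of all tested genes were so on the anterior side. On the posterior side it was 0 members, against 0.192% of all genes. The difference of LAMC3 was 0.58 without posterior library 1. Within each side library 2 lay above library 1, by 0.89 on the anterior side and 1.51 on the posterior side (log2). These are gaps between single libraries, while the 1.33 is between means of 2 libraries. LAMC1 had a log2 difference of 0.56 (SE 0.36) and overlapping groups, and 0.13 without posterior library 1.

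LAMB1 was nearly equal in the 2 anterior libraries and in posterior library 2, and fell away in posterior library 1. The log2 difference was 0.65 (SE 0.38) with all libraries and 0.14 without that library. LAMB2, the beta chain of synaptic and glomerular basement membranes, was instead highest there. It measured 4.42 and 7.05 RPKM on the anterior side and 11.2 and 4.73 RPKM on the posterior side. The log2 difference of LAMB2 was -0.34 (SE 0.44), and 0.21 without posterior library 1. The ratio of LAMB1 to LAMB2 was 21.5 and 13.6 on the anterior side and 3.74 and 18.2 on the posterior side. LAMB1 and LAMC1, which occur together in several laminins, had a ratio between 2.57 and 3.14 in all 4 libraries. The ratio of LAMA2 to LAMA4 was 0.803 and 1.40 on the anterior side and 0.207 and 0.836 on the posterior side. The pairs for these ratios were picked after the values were seen.

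LAMA3 and LAMB3, chains of the epidermal anchoring laminin, parted in posterior library 1, where LAMA3 had its highest value and LAMB3 its lowest. On the anterior side both were higher in library 1 than in library 2. This laminin joins basal keratinocytes to the membrane below them through the ITGA6 and ITGB4 receptor of hemidesmosomes. LAMB3 measured 18.4 and 8.50 RPKM on the anterior side and 6.26 and 7.49 RPKM on the posterior side, without overlap and with a log2 difference of 0.79 (SE 0.40, limma adjusted p = 0.964). The difference of LAMB3 was 0.27 without anterior library 1 and 0.68 without posterior library 1.

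ITGB4, the long-tailed beta subunit of hemidesmosomes, followed LAMB3 in being highest in anterior library 1. It measured 16.1 and 6.91 RPKM on the anterior side and 4.07 and 7.37 RPKM on the posterior side, a log2 difference of 0.84 (SE 0.46) that was 0.28 without anterior library 1 and 0.48 without posterior library 1. ITGA6, its partner and also a partner of ITGB1, measured 35.01 and 15.4 RPKM against 30.0 and 18.6 RPKM. Here library 1 was high on both sides and the sides did not separate (log2 difference -0.021, 95% interval -1.17 to 1.13, and 0.31 without posterior library 1). The ratio of ITGA6 to ITGB4 was 2.17 and 2.22 on the anterior side and 7.38 and 2.52 on the posterior side. The ratio of LAMA3 to LAMB3 was likewise 0.810 and 0.760 against 3.45 and 1.12. These pairs were picked after the values were seen. Of the 12 keratinocyte markers 10 were highest in anterior library 1, and EPCAM and PERP in posterior library 1. KRT5 measured 796 RPKM in anterior library 1 and 182 to 266 RPKM elsewhere, and the hemidesmosome collagen COL17A1 320 RPKM against 86.3 to 165 RPKM. Others of the 10 had a narrow margin. KRT75 measured 447 RPKM against 423 RPKM in posterior library 1, and DSP 319 RPKM against 316 RPKM in posterior library 2. The share of all genes highest in anterior library 1 is not given, so the count of 10 is not read as a result about these markers.

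**Figure D4:**
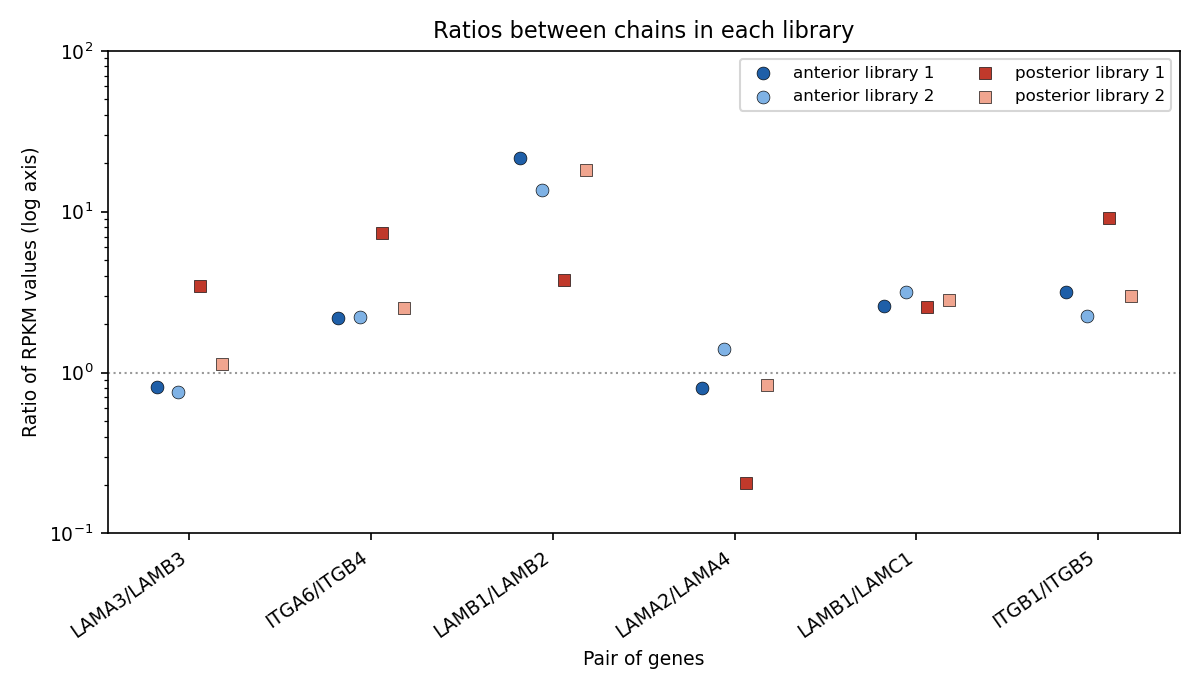
Ratio of RPKM between pairs of chains (log axis) in each library, with circles for anterior and squares for posterior libraries and a dotted line at 1. Posterior library 1 lies apart for LAMA3/LAMB3, ITGA6/ITGB4, LAMB1/LAMB2, LAMA2/LAMA4 and ITGB1/ITGB5, while LAMB1/LAMC1 stays between 2.57 and 3.14. All pairs were picked after the values were seen.

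Collagen receptor genes varied over the libraries to differing degrees, and no test was made between them. ITGA1, which prefers basement membrane collagen, had the steadiest level of the tested members (highest over lowest library 1.07), at 7.74 and 8.13 RPKM on the anterior side and 7.82 and 8.30 RPKM on the posterior side. Its log2 difference was -0.020 with a 95% interval from -0.62 to 0.58, which does not exclude a difference of up to that size. ITGA2, which prefers fibrillar collagen and is carried by keratinocytes, measured 9.46 and 4.91 RPKM against 15.1 and 5.52 RPKM, with library 1 well above library 2 on both sides. The log2 difference of ITGA2 was -0.38 (SE 0.52), and 0.27 without posterior library 1. ITGA11, a fibrillar collagen receptor of fibroblasts, measured 6.24 and 7.25 RPKM against 1.59 and 6.22 RPKM. Its posterior values lay below both anterior values, but only narrowly for posterior library 2, and the log2 difference of 0.84 (SE 0.51) was 0.099 without posterior library 1.

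ITGA9 had the smallest unadjusted p among the members. It pairs with ITGB1 and binds tenascin C, osteopontin and VCAM1. The values were 5.80 and 4.48 RPKM on the anterior side and 1.88 and 3.14 RPKM on the posterior side, without overlap. The log2 difference was 0.82 with a 95% interval from 0.058 to 1.59 (limma adjusted p = 0.964), and it stayed between 0.56 and 1.08 whichever library was left out. ITGA4, its closest relative, which binds fibronectin and VCAM1, measured 17.1 and 11.6 RPKM against 15.3 and 14.9 RPKM, a log2 difference of -0.093 (SE 0.28). ITGA8 differed by -0.083 (SE 0.24). In mouse skin ITGA8 is known in the smooth muscle that raises the hair. Here its value was highest in posterior library 1, at 1.11 times the median of the other 3 libraries. Whether smooth muscle plays a part in the level of ITGA8 was not tested. NPNT, the nephronectin gene, ranged from 1.79 to 2.53 RPKM.

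Besides ITGB1, the beta subunits that pair with ITGAV and bind the RGD motif in matrix ligands such as fibronectin, vitronectin and latent TGF-beta are ITGB3, ITGB5, ITGB6 and ITGB8. ITGB3 separated the sides with little spread, at 12.96 and 11.5 RPKM on the anterior side and 8.59 and 8.86 RPKM on the posterior side. Its log2 difference was 0.44 (SE 0.24, limma adjusted p = 0.964), and 0.42 without posterior library 1, so that library did not set its size. It fell to 0.31 after median ratio scaling and 0.32 after quantile normalization. The difference of ITGB5 was 0.63 (SE 0.33) and 0.23 without posterior library 1. ITGB6, an epithelial subunit that activates latent TGF-beta, measured 9.57 and 5.64 RPKM against 6.69 and 6.09 RPKM. ITGB8, which also activates latent TGF-beta, measured 13.02 and 11.2 RPKM against 7.20 and 12.9 RPKM. Both overlapped between the sides, with log2 differences of 0.18 (SE 0.32) for ITGB6 and 0.29 (SE 0.33) for ITGB8. Without posterior library 1 these were 0.24 and -0.088, so that of ITGB8 changed sign.

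ITGB1 had a log2 difference of -0.33 (SE 0.34) with all libraries and 0.067 without posterior library 1. ITGB2, the beta subunit of leukocyte integrins, measured 8.29 and 5.38 RPKM on the anterior side and 8.32 and 5.12 RPKM on the posterior side, so library 1 was high on both sides. Of the 8 tested leukocyte markers 6 (75%) had library 1 above library 2 on both sides, against 26.7% of all tested genes. PTPRC, one of the 6, measured 5.88 and 4.59 RPKM against 8.53 and 5.21 RPKM, while CD3D was lower in library 1 on both sides, at 5.18 and 8.01 RPKM against 5.07 and 6.49 RPKM. The log2 difference of ITGB2 was 0.027 (SE 0.34), and it was 0.33 without posterior library 1 and -0.10 after median ratio scaling.

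The 4 members that are not subunits were led by ITGB1BP3, which had the highest level of all members. It measured 567 and 713 RPKM on the anterior side and 314 and 610 RPKM on the posterior side, above ITGB1 in each of them. In human this name is an older symbol of NMRK2, a nicotinamide riboside kinase. The groups overlapped, and the log2 difference was 0.54 (SE 0.38), or 0.059 without posterior library 1. ITGB1BP1, which competes with talin for the ITGB1 tail in mammals, measured 13.7 and 14.2 RPKM against 17.8 and 12.98 RPKM. The log2 difference of ITGB1BP1 was -0.12 (SE 0.27), and 0.098 without posterior library 1. ITGB3BP, also known as CENP-R, a centromere protein, ranged from 2.59 to 4.01 RPKM.

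Libraries of the same side also differed from each other. Over the 27 tested members the median absolute difference (log2) was 0.37 between the anterior libraries, 0.76 between the posterior libraries and 0.42 between the sides. The value between the sides compares means of 2 libraries, which vary less than single libraries, so these are unlike measures. Library 1 lay above library 2 on both sides for 11 of the 27 tested members (40.7%), against 26.7% of all tested genes, and below it on both sides for 7 (25.9%), against 37.2%. With a gap of at least 0.5 (log2) on both sides the first group held ITGA2, ITGA6, ITGB2 and LAMA3, or 14.8% of members against 3.92% of all genes. Posterior library 1 was the lowest of the 4 for 13 members (48.1%), against 54.5% of all genes, and the highest for 9 (33.3%), against 26.5%. It was at or below 50% of every other library for 5 members (18.5%), ITGA11, LAMA2, LAMA5, LAMB1 and LAMC3, against 9.93% of all genes.

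**Figure D5:**
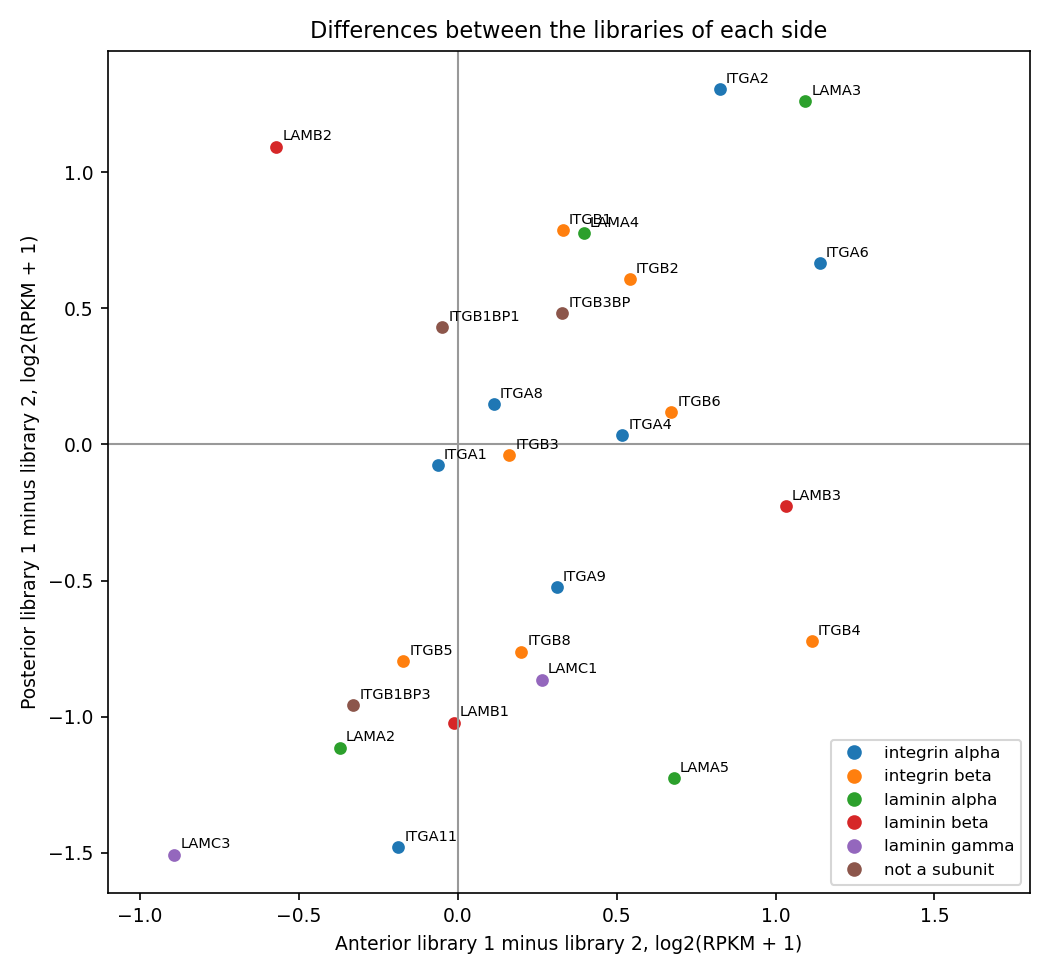
Library 1 minus library 2 within the anterior (horizontal) and the posterior side (vertical), in log2(RPKM + 1), for the tested members reported, coloured by class. LAMA3, ITGA2, ITGA6 and ITGB2 lie in the upper right, LAMC3 in the lower left, and LAMA5 and ITGB4 at the lower right, high in anterior and low in posterior library 1.

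Genes that meet laminins and integrins in the matrix and in the cell were read from lists of related genes. Basement membrane components other than laminins had 18 tested members, of which 0 passed the test and 0 had an unadjusted limma p under 0.05. Both anterior libraries were on top for 3 (16.7%, against 18.9% of all tested genes) and both posterior libraries for 0 (against 7.25%). Posterior library 1 was the lowest for 14 of the 18, against 54.5% of all genes. The list's median log2 difference was 0.28, and -0.070 without that library. COL4A6, a basement membrane collagen chain, measured 41.0 and 48.8 RPKM on the anterior side and 9.57 and 46.3 RPKM on the posterior side. AGRN, a heparan sulphate proteoglycan that binds laminin, measured 10.9 and 7.13 RPKM against 3.96 and 7.13 RPKM, and TINAGL1 11.3 and 12.5 RPKM against 3.64 and 10.4 RPKM. SMOC2 was the exception among the named genes, at 4.90 and 2.997 RPKM against 18.2 and 4.06 RPKM.

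Integrin ligands outside the basement membrane had 16 tested genes, with a median log2 difference of -0.061, or 0.26 without posterior library 1. None passed, and 2 (12.5%) had an unadjusted limma p under 0.05, against 0.942% of all tested genes. The matricellular gene THBS2 measured 135 and 134 RPKM on the anterior side and 40.3 and 85.2 RPKM on the posterior side, and the fibrillin gene FBN2 8.58 and 9.33 RPKM against 1.44 and 5.57 RPKM. The log2 difference of THBS2 was 1.18, and 0.65 without posterior library 1. That of FBN2 was 1.31, and 0.60 without that library. THBS1 was also without overlap, at 33.4 and 21.8 RPKM against 19.9 and 17.8 RPKM. Both anterior libraries were on top for these 3 of the 16 (18.8%, against 18.9% of all tested genes). Both posterior libraries were on top for 0 (against 7.25%). VTN, which encodes vitronectin, measured 3.48 and 4.15 RPKM against 15.1 and 3.23 RPKM. Of the ITGA9 ligands, the osteopontin gene SPP1 measured 19.1 and 11.8 RPKM against 53.7 and 13.3 RPKM, and TNC 41.4 and 38.4 RPKM against 31.7 and 44.7 RPKM.

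Inside the cell, 31 genes of the integrin adhesion complex were tested. None passed, 0 had an unadjusted limma p under 0.05, and the median log2 difference was -0.033, or 0.052 without posterior library 1. Posterior library 1 was the highest for 14 of them (45.2%, against 26.5% of all tested genes) and the lowest for 10 (32.3%, against 54.5%). LIMS2, part of the complex of integrin-linked kinase, measured 20.1 and 22.8 RPKM on the anterior side and 53.5 and 23.5 RPKM on the posterior side. Its partner PARVA measured 14.8 and 11.9 RPKM against 28.9 and 14.5 RPKM, and NEDD9, a scaffold gene, 7.96 and 6.17 RPKM against 17.0 and 7.75 RPKM. The crosslinker gene ACTN4 was lowest in that library, at 56.3 and 36.5 RPKM against 28.5 and 36.6 RPKM.

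The other laminin receptors and hemidesmosome genes had 20 tested members, 0 of which passed or had an unadjusted limma p under 0.05, and a median log2 difference of 0.033, or 0.085 without posterior library 1. Both anterior libraries were on top for 4 (20%, against 18.9% of all tested genes) and both posterior libraries for 4 (20%, against 7.25%). Dystroglycan, DAG1, measured 19.1 and 16.8 RPKM on the anterior side and 13.6 and 15.6 RPKM on the posterior side. Posterior library 1 was the highest for 7 of the 20 (35%, against 26.5% of all tested genes) and the lowest for 8 (40%, against 54.5%). Among the 5 tested genes of the sarcoglycan and sarcospan complex, a part of this list that holds dystroglycan in muscle membranes, it was the highest for 4. SGCB measured 32.1 and 30.9 RPKM against 90.6 and 35.8 RPKM, SGCE 13.04 and 14.0 RPKM against 30.9 and 14.7 RPKM, and SSPN 10.8 and 9.98 RPKM against 33.95 and 12.5 RPKM. SGCD was instead highest in posterior library 2, at 5.83 and 4.44 RPKM against 5.29 and 7.62 RPKM. DST, which links hemidesmosomes to keratin in epithelium, measured 9.60 and 8.50 RPKM against 13.2 and 11.4 RPKM.

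Some members lie beside each other in the RefSeq gene order of assembly bGalGal1.mat.broiler.GRCg7b, which is not the build used by the authors. LAMB1 and LAMB4 have 0 protein-coding genes between them, while 1 lies between ITGA1 and ITGA2. LAMB1 and LAMB4 differed in level, though both were lowest in posterior library 1. ITGA1 and ITGA2 had similar means, 7.997 and 8.75 RPKM, but differed in pattern over the libraries. LAMB1 had a mean of 79.7 RPKM and LAMB4 one of 0.423 RPKM. ITGA1 was steady where ITGA2 was 2.74 times its level in the other libraries, taken as their median, in posterior library 1.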

How the data were processed

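The deposited file holds RPKM values per gene made by the authors, with 1 column for each of the 4 libraries and gene names of Ensembl release 78 per the file name. TopHat2, Partek and the build galGal4 appear in the submitters' processing notes with no version. The method of read counting is not given in the sources available. Read totals are unknown. Ratios between libraries of values under 0.3 RPKM gave relative depths of 99.9%, 77.1% and 99.6% for anterior library 2 and posterior libraries 1 and 2 against anterior library 1. The low values were not rebuilt into counts, so no count test was used.

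Columns were matched to samples by the library number in the titles. Values were compared as log2(RPKM + 1), which understates the change of low genes. A filter of 1 RPKM, reached in 2 or more libraries, left 10939 genes. These were tested with limma 3.58.1 (R 4.3.3, lmFit, eBayes with trend, two-sided, Benjamini-Hochberg threshold 0.05, 2 residual degrees of freedom). A run on simulated data, with its spread taken from the anterior libraries only, checked the code and not the power in these data. Members with a mean of at least 5 RPKM, and up to 4 genes of smallest p per related list, are given with all 4 values. ITGA9, low members, SPP1, TNC, DAG1, NPNT, SGCD, PTPRC, CD3D, CD74, EPCAM, PERP, KRT5, KRT75, DSP and COL17A1 were added after their values were seen. The members and gene lists were chosen with earlier results of these data known. RefSeq names matched 30 of the 31 members. Values of 1 member, and the class shares that need them, are not reported here. No sequences are shown. Alternatives were other pseudocounts, filters and scalings, eBayes without trend, a block for library number and leaving out each library. Figures were drawn with matplotlib 3.10.9 in Python 3.11.15.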

Additional observations from a re-analysis of the deposited data

How the results depend on the processing

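No member had an adjusted limma p under 0.05 in any alternative, with values from 0.0524 upward (the lowest without posterior library 2). Over all genes the count of calls was 0 to 226 when a library was left out, the 226 without posterior library 2. With no filter the 4 low members were tested too, and the smallest adjusted limma p among the 31 was 0.952. With a pseudocount of 0.1, the anterior side had 3 members 2-fold or more apart without overlap (LAMC3, ITGA9 and ITGA11). Leaving out a library gave 0 (without posterior library 1) to 9 such members (without posterior library 2), and 0 to 2 on the posterior side. No share over all genes is given for these counts or for that at a pseudocount of 0.1. They are therefore not read as a result about the members. Members with the anterior libraries on top numbered 9 of 27 without anterior library 1, where 38.8% of all genes were so. They numbered 16 without anterior library 2 (37.1%), 11 without posterior library 1 (30%) and 13 without posterior library 2 (56.4%). With the posterior libraries on top the counts were 9 (24.6% of all genes), 2 (15.1%), 1 (22.2%) and 9 (28.1%), in the same order. The members' median ran from 0.012 (without anterior library 1) to 0.52 (without anterior library 2). On the posterior side, where 12.7% and 12% of all genes lay, median ratio scaling and quantile normalization put 1 member, ITGA1. They turned ITGB2 to -0.10 and -0.11 and ITGB3BP to -0.052 and -0.098. The mean share of ITGA8 was 23.5% with ITGAV in the class. The columns carry a library number within each side, which no label ties between the sides. With a replicate block 2 genes passed and 0 of them were members, and the deviations of same-numbered libraries correlated at 0.49 over genes. An unadjusted limma p under 0.05 was then found for 6 of the 27 members and 617 of the 10939 genes. The smallest adjusted limma p among the members was 0.385 with the block, for LAMC3 (SE 0.30). Log2 differences that changed sign when a library was left out ran from -0.058 to 0.018 for ITGA1, -1.04 to 0.27 for ITGA2, -0.35 to 0.17 for ITGA4, -0.59 to 0.55 for ITGA6, -0.72 to 0.067 for ITGB1, -0.33 to 0.098 for ITGB1BP1, -0.28 to 0.33 for ITGB2, -0.18 to 0.30 for ITGB3BP, -0.15 to 0.52 for ITGB6, -0.088 to 0.67 for ITGB8, -1.05 to 0.21 for LAMA3, -0.73 to 0.048 for LAMA4 and -0.89 to 0.21 for LAMB2. The cause was not tested. With 1 library left on a side, that library is assumed to vary like the other side.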
